A study of Mus musculus with 8 samples.

Results

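DNA methylation was examined in the genes of 6 families of developmental transcription factors, the Pax, Tbx, Lhx, Dlx, Nkx and Six-family genes. The cells are labelled type A spermatogonia and came from control mice and mice exposed to arsenic in utero. The members are the protein-coding mouse genes of RefSeq on mm10 whose symbol starts with Nkx or is a family name (Pax, Tbx, Lhx, Dlx or that of the Six-family) with a number only. This rule found 56 genes among 21000: 9 Pax, 13 Tbx, 8 Lhx, 6 Six-family, 6 Dlx and 14 Nkx genes. Their cytosines, from 2 kb before the start to the end of the gene, numbered 7734 of the 2130064 cytosines that the 8 samples share. Tbx22, on the X chromosome, had none, so that 55 members carry values.

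The 4 control samples came from F1 males of C3H/HeN dams given tap water, and the 4 arsenic samples from F1 males of dams that drank tap water with sodium arsenite at 85 ppm from gestational day 8 to 18. The cells labelled type A spermatogonia were selected at postnatal day 6 by magnetic sorting for CD49f, a surface integrin that some somatic cells also carry. Each sample pooled 8 testes of 4 mice. The 2 groups differ in the arsenic only, as far as the labels and methods say. Reduced representation bisulfite sequencing (RRBS) commonly cuts DNA with MspI at CCGG before bisulfite conversion (the enzyme is not given in the sources used here), reads mainly CpG-rich sequence, and leaves a C at a methylated cytosine and a T at an unmethylated one. The level of a cytosine is the percentage of its reads that kept the C, and the level of a gene region is the unweighted mean over its cytosines. Each difference is the arsenic mean minus the control mean, in percentage points.

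These factors bind DNA through a paired domain (Pax), a T-box (Tbx), a homeodomain beside LIM domains (Lhx) or a homeodomain (Dlx, Nkx and the Six-family), and they set cell identity in the embryo, in the eye, kidney, limb, heart, forebrain and pancreas among other organs. Most lie within CpG islands that reach far past the start, and in cells that do not use them such genes are commonly held by Polycomb complexes, with little DNA methylation, which is why long unmethylated stretches over them have been called methylation valleys. By the study's account, male germ cells gain methylation from the late fetal stage into early postnatal life. The exposure covered this period in part.

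Reads on cytosines numbered 96428439 to 121351202 per control sample and 97433083 to 133406260 per arsenic sample, with a median coverage of 31 to 44, and the mean level over all cytosines was 54.1 to 54.3% in the control and 53.6 to 54.0% in the arsenic samples. The labelled cell type was checked at 2 lists of promoters. Maternal imprints are unmethylated in male germ cells and methylated on 1 allele in somatic cells: the 10 of 15 that were covered had a mean level of 54.6 to 62.6% in the control and 50.8 to 60.2% in the arsenic samples, and none was near 0. Germline genes such as Dazl and Ddx4 have promoters that are methylated in somatic cells: the 12 of 14 that were covered had a mean of 82.6 to 85.9% in the control and 81.5 to 84.5% in the arsenic samples. Both lists go against a population made of germ cells alone, and both lie nearer the somatic state given here than that of germ cells. The share of germ cells was not measured. The groups overlapped in both, and the part of other cells in the values below was not tested. In pooled cells, another mixture of cells and another level within the cells cannot be told apart.

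Outside the Tbx family, the promoters of these genes had little methylation. A promoter here runs from 1 kb before to 100 b after any curated start. Over the 1243 promoter cytosines of the members the level was 3.04% ± 0.25 (SD, n = 4) in the control and 3.23% ± 0.239 in the arsenic samples, against 6.58% ± 0.0874 and 6.50% ± 0.16 over all protein-coding genes. Of the 40 promoters with at least 3 cytosines, 36 (90%) were under 10%, where 79.4% of the promoters of all genes were, and the median promoter stood at 1.78% beside 1.76% for all genes. The medians were thus alike, and a smaller share of the members had a methylated promoter, which was not tested. The bases before the start are rich in CpG: in the 250 bases before the start, the 52 promoters of the 41 members that the RefSeq table (build GRCm38.p6) holds had a median of 14 CpGs, against 6 in all 32851 promoters, and 67.3% held the MspI site CCGG, a palindrome that reads alike on both strands, against 47.1%. Those 32851 promoters belong to 27025 genes, more than the 21000 protein-coding genes, so this background is not the one used for the levels.

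Stretches of 3 promoters are printed as examples, each the 250 bases before the start, 5′ to 3′ on the strand of the gene, with CpGs in capitals. Dlx1, which is needed for forebrain interneurons, and Six2, which keeps kidney progenitors, are CpG-rich with a low level. Tbx19, the activator of the pituitary Pomc gene, has few CpGs and a high level. The Dlx1 stretch lies at chr2:71529195-71529444 (+ strand), that of Six2 at chr17:85688255-85688504 (- strand) and that of Tbx19 at chr1:165160774-165161023 (- strand). They are the GRCm38.p6 reference, which comes from another strain than these mice.
Dlx1 promoter: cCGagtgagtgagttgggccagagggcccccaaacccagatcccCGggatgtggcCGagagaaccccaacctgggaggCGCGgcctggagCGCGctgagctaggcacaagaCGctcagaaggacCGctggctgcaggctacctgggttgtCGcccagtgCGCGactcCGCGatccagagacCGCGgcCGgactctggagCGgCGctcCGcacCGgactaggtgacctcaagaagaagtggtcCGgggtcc
Six2 promoter: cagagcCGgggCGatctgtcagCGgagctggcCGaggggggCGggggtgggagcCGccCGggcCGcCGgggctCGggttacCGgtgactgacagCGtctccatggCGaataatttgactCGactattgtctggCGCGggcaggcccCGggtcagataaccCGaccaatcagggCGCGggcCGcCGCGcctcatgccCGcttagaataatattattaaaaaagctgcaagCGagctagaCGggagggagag
Tbx19 promoter: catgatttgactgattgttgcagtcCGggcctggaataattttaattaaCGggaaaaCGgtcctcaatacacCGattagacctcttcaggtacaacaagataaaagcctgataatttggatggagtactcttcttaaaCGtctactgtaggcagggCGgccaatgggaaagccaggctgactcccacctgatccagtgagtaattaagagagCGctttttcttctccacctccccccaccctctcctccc

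The Dlx1 stretch holds 22 CpGs, and its 31 covered cytosines (each strand of a CpG is counted on its own) averaged 0.663% ± 0.364 in the control and 1.55% ± 0.783 in the arsenic samples. Six2 has 26 CpGs, with 18 covered cytosines at 1.07% ± 0.729 and 1.37% ± 0.743. Tbx19 has 7 CpGs, and its 6 covered cytosines averaged 61.6% ± 5.73 and 71.8% ± 5.17, from 19.1% at the lowest to 77.9% at the highest cytosine. The first and second were near 0 in all 8 samples, and that of Tbx19 was above 50% in all. CpG number and level did not go together in every member. The same stretch of Tbx21 has 16 CpGs, with 0 covered cytosines, and its promoter level was 52.3% over the 8 samples. That of Pax9 has 7 CpGs, and its promoter level was 2.41%.

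The 5 highest promoters were those of Tbx19, Tbx21, Tbx1, Tbx4 and Nkx2-6. The Tbx19 promoter, in samples 1 to 4, stood at 60.1, 58.3, 57.9 and 70.1% in the control and 64.3, 73.1, 76.0 and 73.8% in the arsenic group. Control sample 4 lay inside the arsenic range, so the groups overlapped, and the difference of 10.2 points had an adjusted p of 0.86. Tbx21, the T-bet factor of type 1 helper T cells, followed at 49.9% ± 2.94 in the control and 54.8% ± 3.64 in the arsenic samples over 5 cytosines. Tbx1, the pharyngeal gene of the DiGeorge region, stood at 12.4% ± 1.53 and 13.8% ± 2.31. Tbx4, a hindlimb and lung factor, stood at 9.28% ± 3.08 and 12.7% ± 2.51. Nkx2-6, of the pharynx and heart, stood at 9.30% ± 3.82 and 10.4% ± 1.90. In each of these 5 the arsenic mean was the higher and the groups overlapped. The Pax, Lhx, Dlx, Nkx and Six-family genes had promoter levels between 1.61% (Six-family) and 3.90% (Nkx) in the control samples. The Tbx promoters had 7.40% in the control and 8.51% in the arsenic samples, above the 6.58% and 6.50% of all protein-coding genes. Of the 8 Tbx promoters 4 (50%) were under 10%, against 79.4% of all genes. Their median over the 8 samples was 7.79%, beside 1.76% for all genes.

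The gene bodies set the Pax and Tbx families apart from the others. In the control samples the exons stood at 2.23% ± 0.297 in Dlx, 2.43% ± 0.341 in Nkx, 3.03% ± 0.437 in Lhx, 8.68% ± 0.866 in Six-family, 15.1% ± 1.07 in Tbx and 26.1% ± 0.537 in Pax genes, all below the 46.0% ± 0.181 of all protein-coding genes. Introns stood at 2.71% ± 0.677 in Six-family, 5.56% ± 0.738 in Dlx, 6.96% ± 0.0719 in Lhx, 7.55% ± 0.369 in Nkx, 20.2% ± 0.232 in Tbx and 27.1% ± 0.311 in Pax genes, against 56.6% ± 0.107 in all genes. Over the 8 samples, the median gene had introns at 2.69, 2.64, 7.02, 2.94, 15.7 and 23.9% in the same order of families. The Nkx mean includes 26 cytosines of Nkx6-3 among 350, at 51.7%. Dlx, Nkx and Lhx exons lie within a point of each other, and the samples of Dlx and Nkx overlap, whereas Pax and Tbx exons stand apart by more than the spread of their samples. The Six-family value rests on Six4, whose 89 exon cytosines of 279 averaged 22.2%, and the median gene of that family was at 2.75%, beside 3.23% in Lhx. Of the 53 members tested for exons 37 (69.8%) were under 10%, against 23.1% of all genes. For introns the counts were 33 of 53 (62.3%) against 13.2%.

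**Figure D1:**
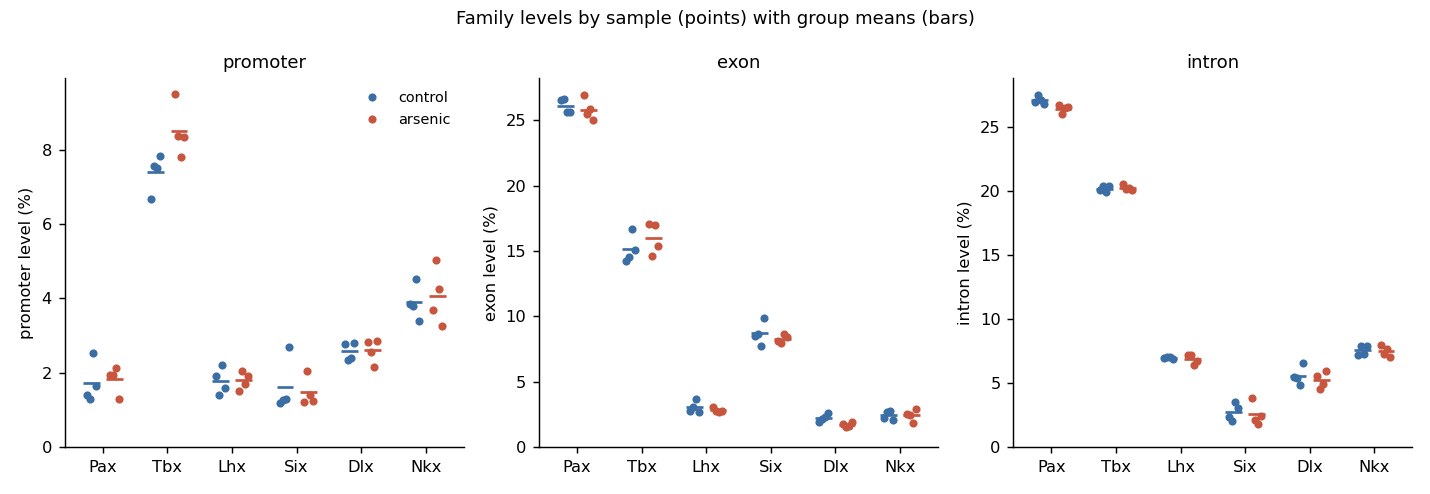
Levels of promoters, exons and introns by family (x axis) and sample, in percent (y axis, a scale of its own in each panel). Points are the 4 control and 4 arsenic samples and bars are group means. Pax and Tbx stand above the other families in exons and introns, and the groups fail to overlap only in Pax introns and Dlx exons among the values shown.

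Over promoter, exons and introns together, 36 of the 55 members were under 10%, 13 between 10 and 40%, and 6 at 40% or more. In the Pax family the highest gene was Pax4, a factor of pancreatic beta cells, at 88.0% ± 4.77 in the control and 88.3% ± 2.76 in the arsenic samples over 10 cytosines, and the lowest was Pax1, of the vertebral column and thymus, at 1.94% ± 0.68 and 1.81% ± 1.04. Among Tbx genes the range ran from Tbx2 at 3.14% ± 0.983 and 3.13% ± 0.44 to Tbx19 at 71.0% ± 1.49 and 72.2% ± 1.29. The Lhx family was narrow, from Lhx5 at 2.03% ± 0.536 and 2.10% ± 0.307 to Lhx4, of pituitary and motor neurons, at 9.19% ± 0.657 and 8.95% ± 0.254. The Six-family genes ran from Six2 at 1.216% ± 0.381 and 1.35% ± 0.396 to Six4 at 15.3% ± 0.412 and 15.2% ± 0.497. All Dlx genes were low, from Dlx5, of bone and face, at 1.43% ± 0.947 and 1.43% ± 0.705 to Dlx4 at 6.97% ± 1.08 and 6.49% ± 0.874. Nkx genes ran from Nkx3-2 at 0.984% ± 0.5 and 1.35% ± 0.476 to Nkx6-3, of the stomach, at 52.0% ± 3.20 and 51.4% ± 1.69 over 26 intronic cytosines. In each of these genes the groups overlapped. Of the 6 genes at 40% or more, Pax4, Pax5, Tbx10 and Nkx6-3 had no covered promoter, and Tbx10 had 5 cytosines in all. Pax5, the B cell factor, stood at 50.3% ± 0.426 and 49.4% ± 0.542.

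**Figure D2:**
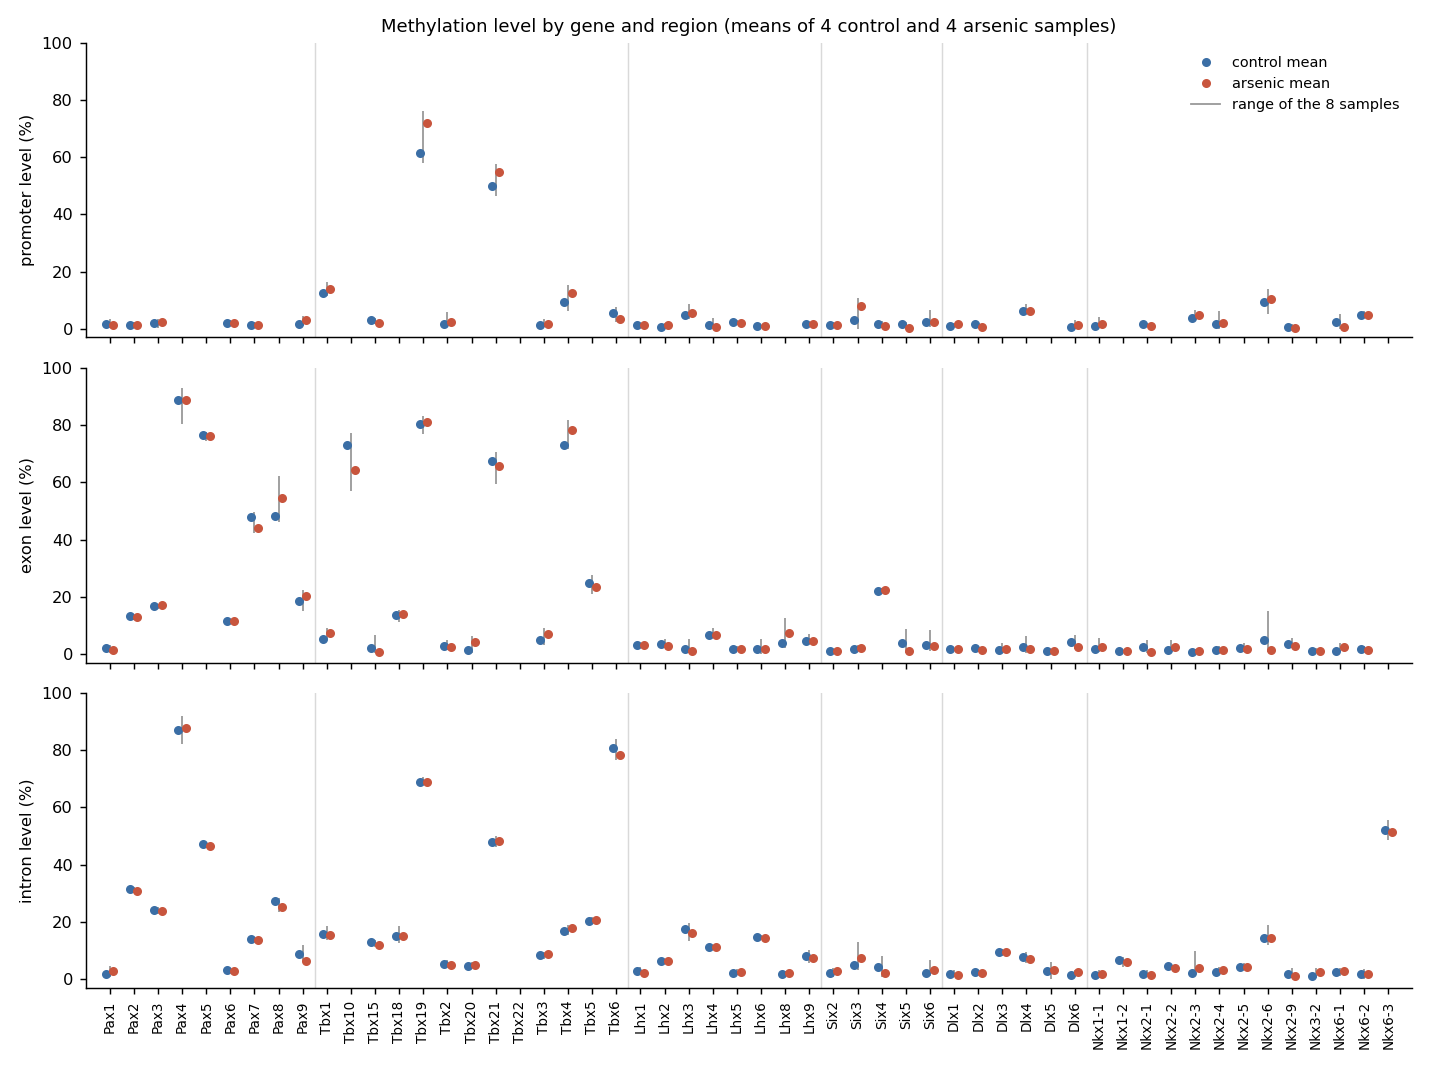
Promoter, exon and intron level in percent (y axes) of the genes shown, with at least 3 cytosines in that region, with the genes along the x axis in family order. Blue and red points are the means of 4 control and 4 arsenic samples and grey lines span the 8 samples. Promoters stay low except those of Tbx19 and Tbx21, whereas exons and introns of Pax and Tbx genes spread up to 88.8%.

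Level rose with distance from the start, but far later than in other genes. In the first 1 kb after the start the members averaged 2.51% over the 8 samples and all genes 5.67%. From 1 to 3 kb the values were 5.42% and 32.8%, and from 3 to 10 kb 7.11% over 1991 cytosines of 43 members against 62.0% in all genes. Beyond 10 kb, where 20 members have cytosines, the level was 36.5% against 70.6%. The members with cytosines become fewer with distance, since many end before 10 kb. Single bins of 500 b reached 21.9% from 6 kb and 29.7% from 7 kb in the control samples, over 8 and 7 genes. The arsenic samples had 22.7% and 28.9% there. With each gene split into 3 equal parts, the introns of the members rose from 7.37% through 21.5% to 45.3%, and those of all genes from 39.9% through 69.3% to 71.1%. The exons of the members reached 5.24, 7.16 and 13% in the same order, those of all genes 16.8, 60.4 and 69.9%. In the 4 distance ranges from the nearest on, the control and arsenic means of the members were 2.58 and 2.43%, 5.38 and 5.45%, 7.21 and 7.004%, and 36.7 and 36.3%.

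**Figure D3:**
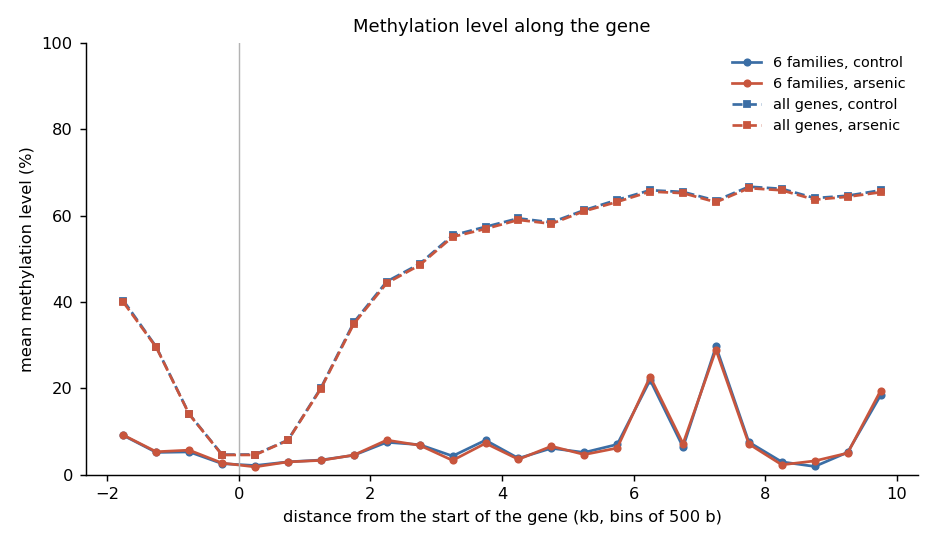
Mean methylation level in percent (y axis) in bins of 500 b by distance from the start in kb (x axis), for cytosines of the 6 families (solid lines) and of all protein-coding genes (dashed), as means of the 4 control (blue) and 4 arsenic (red) samples. All genes climb past 50% within 4 kb, and the 6 families stay below 30% throughout. Control and arsenic lines run close together.

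How far the low stretch reached was read for each gene as the first cytosine after the start with a mean level of at least 50%. Of the 54 members with at least 10 cytosines past the start, 30 (55.6%) had no such cytosine before the gene ended, against 11.7% of 15147 genes. All 6 Dlx genes were among them, as were Lhx1, Lhx5, Six2, Six3, Tbx2, Tbx3, Pax1 and 12 Nkx genes. The 24 members with one had it at a median of 9978.5 bases, against 4665 bases in all genes. It came at base 124 in Tbx19, at 1645 in Tbx21 and at 2618 in Pax4. In Pax6, the master gene of the eye, it came at 27414, in Pax7, of muscle satellite cells, at 32142, and in Pax3, of neural crest and muscle, at 47339. Length goes along with this: across the 55 members, gene length and level over the gene had a Spearman's rho of 0.58, given as a description since all points share the same libraries, and the median level was 14.5% in the 17 genes over 20 kb and 2.95% in the 38 shorter ones. The shares of 55.6% and 11.7% were not matched for gene length. Dlx2 with 3347 bases and Nkx2-4 with 1470, for example, end before the median of 4665 bases in all genes.

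Members that neighbour each other on a chromosome were not always alike. Within 100 kb of another member lay 11 pairs. Dlx1 and Dlx2, a convergent pair 9.43 kb apart on chromosome 2, stood at 1.49% and 1.80% as means of the 8 samples. The pair of Dlx3 and Dlx4 differed by 0.246 points. Tbx2 and Tbx4, 44.4 kb apart on chromosome 11, stood at 3.14% and 23.7%. Of the 7734 cytosines, 673 also lie in another annotated gene, among them antisense transcripts such as Dlx1as, Dlx6os1 and Pax6os1, and a level there cannot be assigned to one of the genes alone.

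The comparison of arsenic with control found no gene region past the threshold. Counts were summed over each region (upstream from 2 to 1 kb before the start, promoter, exon, intron) and compared by a quasi-binomial logistic regression, in which the spread between samples enters, with Benjamini-Hochberg adjustment over all regions. The threshold was an adjusted p of 0.05, which 0 of the 173 regions of the members reached, as did 0 of all 41537 regions (0% called). At an unadjusted p under 0.05 there were 8 regions of members (4.62%) against 2399 of all regions (5.78%), and limma gave 10 of the members (5.78%) against 2173 of all regions (5.23%). The 8 were the exons of Dlx2, Pax8 and Tbx3 and the promoters of Nkx2-1, Six3, Six5, Tbx15 and Tbx19, with a smallest adjusted p of 0.86. Regions with a lower arsenic mean, of any size, numbered 90 (52.0%) among members and 57% among all regions. With 4 samples a side, a region whose 8 values do not overlap reaches the smallest two-sided exact permutation p, 0.0286. Such regions numbered 3 among members (1.73%) and 3.36% among all regions. None of these shares was tested against another.

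As family means, the promoters of the members differed by 0.191 points, the exons by -0.0643 and the introns by -0.28, with overlapping groups in each, and all protein-coding genes differed by -0.0806, -0.187 and -0.406. Among the 18 levels of 6 families by promoter, exon and intron, the groups failed to overlap in 2. Pax introns stood at 27.0, 27.5, 27.2 and 26.8% in the control and 26.8, 26.0, 26.5 and 26.6% in the arsenic samples, a difference of -0.656 points. The lowest control sample lay just above the highest arsenic sample. Dlx exons stood at 1.90, 2.16, 2.26 and 2.62% against 1.72, 1.52, 1.59 and 1.88%, a difference of -0.558 points. Here, too, the gap between the groups was a small part of the spread within them.

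**Figure D4:**
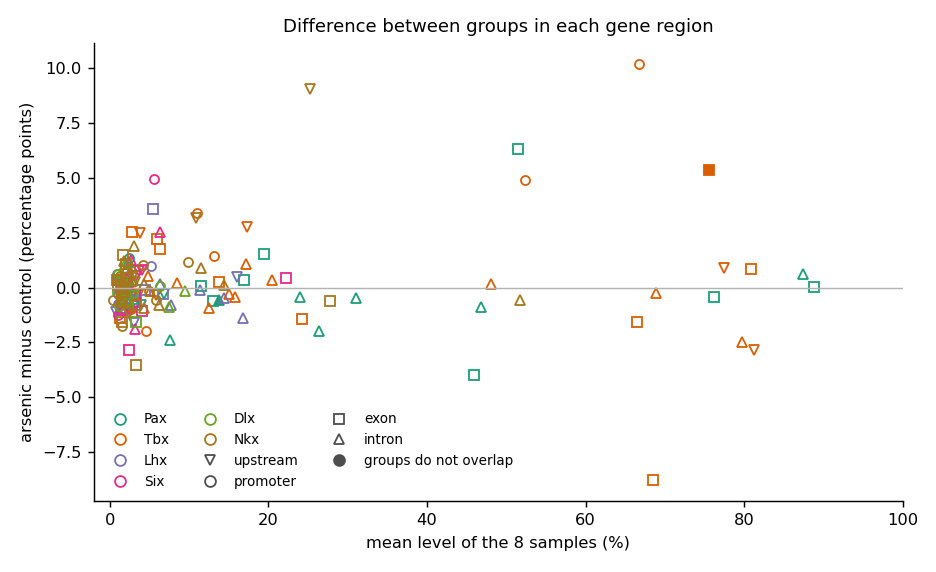
Difference between arsenic and control mean in percentage points (y axis) against the mean level of the 8 samples in percent (x axis) for the 173 regions of the members. Colours are families, symbols are region types, and filled symbols mark the 3 regions whose groups do not overlap. Most points lie at low levels and within a few points of 0, and the largest differences, from -8.77 to 10.2 points, belong to regions of few cytosines.

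The 3 regions without overlap were the Tbx15 promoter, the Tbx4 exons and the Pax7 introns, and each has at least 10 cytosines. Tbx15, a factor of skeleton and fat, had a promoter (17 cytosines) at 2.86, 3.76, 3.20 and 2.75% in the control and 2.61, 2.51, 1.77 and 1.86% in the arsenic samples. All arsenic samples lay below all control samples, by -0.952 points between the means, at a level where few reads kept the C. The Tbx4 exons (17 cytosines) stood at 72.0, 72.6, 75.4 and 71.7% in the control and at 81.7, 76.7, 78.7 and 76.0% in the arsenic samples. Here all arsenic samples lay above, by 5.36 points. The Pax7 introns (368 cytosines) stood at 14.0, 14.2, 14.2 and 14.0% against 13.8, 12.96, 13.6 and 13.8%, a difference of -0.547 points. The exact permutation p was 0.0286 in each, which is fixed by the choice of regions that do not overlap, and the adjusted p was 0.86, 0.86 and 0.909. In the Pax7 introns the direction depended on how cytosines were weighted: with all reads pooled the level was 11.4% in the control and 12.2% in the arsenic group, a difference of 0.784 points the other way.

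Taking promoter, exons and introns of a gene together, 6 of the 55 members (10.9%) had groups that did not overlap, against 3.95% of 17117 genes. Of these, 4 were lower in arsenic, among them Tbx6 (-2.20 points), Pax7 (-0.761) and Dlx2 (-0.663), and higher were Tbx4 (1.95) and the heart factor Tbx20 (0.70). Weighting by coverage removed most of this: only Dlx2 remained without overlap, 1 of 55 (1.82%) against 3.2% of all genes, and Pax7 changed sign, to 0.618 points. Dlx2, the partner of Dlx1 in the forebrain, stood at 1.93, 2.29, 1.99 and 2.30% in the control and 1.49, 1.33, 1.29 and 1.76% in the arsenic samples over 215 cytosines. Tbx4 stood at 22.3, 22.9, 22.4 and 23.4% against 25.7, 24.4, 24.5 and 24.2% over 134 cytosines. Tbx6, of presomitic mesoderm, stood at 39.5, 40.9, 39.6 and 40.6% against 37.8, 37.2, 39.0 and 37.6% over 24 cytosines. In Tbx20 the groups were barely apart: the highest control sample had 4.50238% and the lowest arsenic sample 4.50239%. The exact permutation p of 0.0286 in each is again the smallest possible and was fixed by the choice.

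Single cytosines were compared by the likelihood-ratio test of logistic regression without overdispersion, the kind of test named in the methods of the study. A differentially methylated cytosine (DMC) has q of at most 0.01 and a difference of at least 10 points between the coverage-weighted levels of the groups, and is called hypoDMC where arsenic is lower and hyperDMC where it is higher. The members held 35 DMCs among 7734 cytosines (0.453%), against 0.552% of all cytosines. They were 18 hypoDMCs (0.233% against 0.323%) and 17 hyperDMCs (0.22% against 0.228%). Since a cytosine near 0 or 100% has room to move by 10 points to 1 side only, the share among cytosines with a mean level of 10 to 90% over the 8 samples is given as well. It was 22 of 1285 in the members (1.71%) and 0.916% of all. DMCs were also called outside this range: 11 of the 35 had a mean level under 10%. Groups without overlap were found at 98 member cytosines (1.27%) against 2.1% of all. When the spread between samples entered the test, through limma on log2 ratios, no cytosine was called in the members or elsewhere (0%), and the q of the 35 DMCs ran from 0.917 to 0.972. At an unadjusted p under 0.05, limma held 423 member cytosines (5.47%) against 5.11% of all. The DMCs below rest on pooled reads, and none passed once the spread between samples entered the test, over all cytosines and with 4 samples a side.

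Pax genes held 16 DMCs (12 hypoDMCs), Tbx genes 9 (3 hypoDMCs), Lhx genes 6 (2 hypoDMCs) and Nkx genes 4 (1 hypoDMC), and Dlx and Six-family genes held none. As a share of the cytosines tested, this was 0.779% of 2054 in Pax, 0.655% of 1375 in Tbx, 0.348% of 1725 in Lhx and 0.293% of 1364 in Nkx genes, against 0.552% of all. The Dlx genes had 605 and the Six-family 611 cytosines, of which 42 and 24 had a mean level of 10 to 90%, where a move of 10 points is open to both sides. In Pax and Tbx genes 633 and 367 cytosines were in that range. Of the DMCs, 13 of 16 in Pax, 6 of 9 in Tbx, 2 of 6 in Lhx and 1 of 4 in Nkx genes lay in it. By region, 21 lay in introns, 12 in exons, of which 9 were coding, and 2 in promoters. The promoter DMCs were hyperDMCs in Tbx4, described further on, and in Lhx3, of the pituitary, where all control samples were at 0 and the arsenic samples at 5.56, 31.6, 0 and 4.35%. The 35 fell in 21 genes. Pax5 had 5, all hypoDMCs, Pax7 had 4, Pax6, Pax8 and Tbx4 had 3 each, Lhx1 had 2 and the other 15 genes had 1. The 3 in Tbx4 were all hyperDMCs. Neighbours within 100 b were both DMCs at 3 places: in a Pax8 exon 50 b apart (15.9 and 16.1 points), in a Pax5 intron 12 b apart (-21.5 and -17.9) and in a Pax6 intron 8 b apart (-13.8 and -10.5). Of the 35, 13 (37.1%) had groups that did not overlap, against 44% of all DMCs, and 4 kept their call whichever sample was left out. In 7 hyperDMCs all control samples were at 0, over 73 to 156 control reads, which allow a level of up to 1.92 to 4.11%. In 3 hypoDMCs all arsenic samples were at 0, over 72 to 119 reads, which allow up to 2.52 to 4.17%. These limits rest on 3 reads and cover counting error only.

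The 3 strongest hypoDMCs and the 3 strongest hyperDMCs without overlap, by difference, are shown in their sequence, with the Tbx4 promoter DMC added, to show that they sit in unlike contexts. Each line gives 61 bases of the GRCm38.p6 reference, 5′ to 3′ on the strand of the gene, with the CpG of the DMC in capitals. The Pax7 line lies at chr4:139800810-139800870 (- strand), Pax5 at chr4:44679425-44679485 (- strand) and Lhx8 at chr3:154329933-154329993 (- strand). Those of Tbx4 lie at chr11:85888656-85888716 (intron) and chr11:85885896-85885956 (promoter), both on the + strand, Tbx6 at chr7:126783785-126783845 (+ strand) and Pax8 at chr2:24435856-24435916 (- strand).
Pax7 intron: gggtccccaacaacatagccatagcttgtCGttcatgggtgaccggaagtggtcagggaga
Pax5 exon: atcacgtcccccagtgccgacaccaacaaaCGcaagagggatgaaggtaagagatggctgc
Lhx8 intron: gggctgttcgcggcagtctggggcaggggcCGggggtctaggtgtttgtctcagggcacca
Tbx4 intron: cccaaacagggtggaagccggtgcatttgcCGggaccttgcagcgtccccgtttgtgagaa
Tbx6 intron: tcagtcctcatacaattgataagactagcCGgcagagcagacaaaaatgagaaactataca
Pax8 exon: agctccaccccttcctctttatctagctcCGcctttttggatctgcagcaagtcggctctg
Tbx4 promoter: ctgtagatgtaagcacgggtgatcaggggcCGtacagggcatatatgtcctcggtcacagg

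The hypoDMC of the Pax7 intron, 32128 bases from the start, had 20, 16.7, 45.5 and 36.4% in the control and 0, 0, 10 and 0% in the arsenic samples over 19 to 30 reads a sample. Pooled reads differed by -27.4 points (q 9.2e-05). The Pax5 hypoDMC, in a coding exon, had 100, 93.1, 84.6 and 87.5% against 65.4, 65.7, 68.0 and 68.8% (19 to 50 reads), a difference of -23.4 points (q 0.00205). Lhx8, a factor of the forebrain that oocytes also need, had its hypoDMC 597 bases from the start, at 20.6, 8, 31.8 and 26.9% against 6.25, 0, 0 and 0% over 15 to 34 reads, by -19.2 points (q 0.00321). Control sample 2 was the lowest control sample at both the Pax7 and the Lhx8 site. The Pax5 call was lost without control sample 1 or 2 (q 0.0142 and 0.0123), and the Lhx8 call without control sample 3 or 4 or arsenic sample 2, 3 or 4 (q 0.0103 to 0.0167).

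The Tbx4 intron held the largest of the 3 hyperDMCs, 2319 bases from the start. Its control samples had 0, 0, 4.26 and 0% and its arsenic samples 33.3, 16.0, 23.1 and 7.41% over 25 to 54 reads, a difference of 17.9 points (q 1.5e-05). The hyperDMC in the Tbx6 intron had 60.5, 50.5, 55.2 and 64.8% against 69.0, 77.9, 79.1 and 68.1% (58 to 93 reads), by 16.3 points (q 0.00691). Pax8, a factor of thyroid and kidney, had its hyperDMC in a coding exon, at 67.7, 63.5, 71.0 and 78.6% against 81.3, 82.9, 86.5 and 92.7% (56 to 129 reads), by 16.1 points (q 0.000463). In the 2 Tbx sites and in Pax8 the arsenic samples lay wholly above the control samples, and the limma q of all 6 sites ran from 0.932 to 0.972. The Tbx6 call was lost without control sample 2 or 3 or arsenic sample 2 or 3, with q from 0.0167 to 0.0595.

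**Figure D5:**
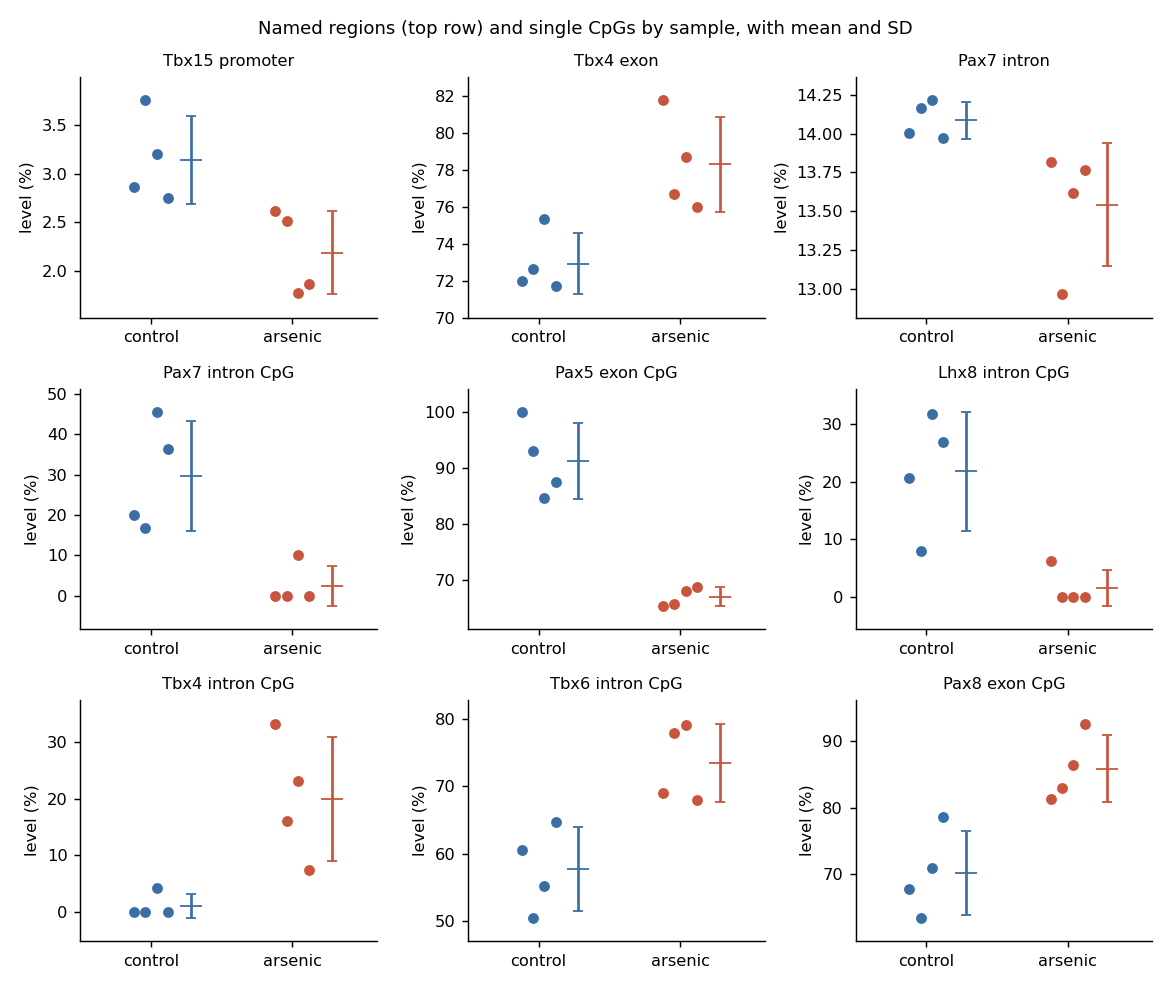
Level in percent (y axes, each with its own range that need not start at 0) in the 4 control (blue) and 4 arsenic (red) samples for the 3 regions without overlap (top row) and the 6 named single CpGs (lower rows). Points are samples, and the bar with caps is the mean with its SD. The groups do not overlap in any panel, which is how the panels were chosen.

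The cytosines around these DMCs followed them in part. Within 100 b of the Pax5 hypoDMC lay 20 other covered cytosines, of which 12 were lower and 8 higher in arsenic, with a median difference of -0.509 points, and no other had groups that did not overlap. Around the Lhx8 hypoDMC, 12 others had a mean level of 0.93% and a median difference of 0. Around the Pax7 hypoDMC, 2 of 5 went the same way. Near the hyperDMC of the Tbx4 intron, 11 of 17 went the same way with a median of 1.43 points, and around that of Tbx6 only 1 of 5 did, with a median of -7.87 points and 2 others without overlap. Around the Pax8 hyperDMC 3 of 4 went the same way, with a median of 11.3 points, which includes the second DMC of that exon. Pax8 exons as a whole, over 12 cytosines, stood at 48.3% ± 1.59 in the control and 54.6% ± 5.51 in the arsenic samples, with an adjusted p of 0.86.

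Tbx4 is described further because several of its values moved one way, and it was chosen after its values were seen. Besides the intronic hyperDMC and the exons, its promoter held a hyperDMC at base -441 from the start, with 17.5, 10.3, 17.6 and 26.9% in the control and 21.4, 47.1, 43.3 and 35.9% in the arsenic samples, a difference of 19.5 points with overlapping groups. The third, in the exon part past the coding sequence, had 80.4, 62.5, 65.4 and 76.1% against 88.7, 81.5, 89.0 and 79.4%, by 14.0 points, and here too the groups overlapped. Promoter (19 cytosines), exons and introns (98 cytosines, 16.7% ± 0.883 and 17.7% ± 0.901) all had the higher mean in arsenic, while the 6 cytosines upstream had the lower one, 79.8% ± 4.07 against 82.7% ± 7.06. The smallest adjusted p of a Tbx4 region was 0.86.

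Partners and regulators of these factors were looked at in 2 lists. The 26 partners, such as the Eya cofactors of Six-family proteins and the LIM-binding proteins of Lhx proteins, had a median promoter level of 1.30%, and their exons and introns had medians of 11.2% and 46.1%. None of their 19 promoters, 24 exon or 26 intron regions passed the threshold, and 23 of the 26 introns had a lower arsenic mean, as did 62.1% of the introns of all genes. Groups did not overlap in 2 of the 26 introns, those of Eya2 (66.6% and 65.3%, -1.25 points) and Isl2 (3.93% and 2.91%, -1.02 points). Over all genes they did not overlap in 578 of 14607 introns, and the 2 counts were not tested against each other. The 20 Polycomb genes had medians of 1.64% in promoters, 41.8% in exons and 29.8% in introns, and none passed. At an unadjusted p under 0.05 there were 3 of their promoters, 2 of their exon regions and 1 of their intron regions, of 14, 18 and 19 tested, and 1 of the 26 intron regions of the partners, where 5.78% of all regions were. Neither list was tested as a whole.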

How the data were processed

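RRBS libraries of 4 control and 4 arsenic pools were processed by the authors with Trim Galore 0.6.5, Bismark 0.22.3 and methylKit 1.22.0 on mm10, per the submitters' processing notes. The deposited table gives, as counts without normalization, the reads covering each cytosine and those with C or T. Each strand is a row, and coverage is at least 10. Cytosines on chromosomes 1 to 19, X and Y were used. Genes came from curated RefSeq transcripts on GRCm38.p6. A cytosine was assigned to promoter, exon, intron or upstream sequence in that order, and regions with at least 3 cytosines were tested by quasi-binomial logistic regression with an F test across all regions. Single cytosines were tested by likelihood-ratio tests, with Benjamini-Hochberg adjustment over all cytosines. limma 3.58.1 in R 4.3.3 was run on log2 ratios with a pseudocount of 1. Other steps used Python 3.11.15, numpy 2.4.6 and scipy 1.17.1. The tests were checked on simulated data. For single cytosines the simulated counts had no spread between samples beyond counting error. That check therefore cannot show how spread between pools acts on the DMC calls.

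The members, lists and tests were chosen with earlier results of these data known. Regions given by sample were, for promoters, exons and introns, the 2 largest decreases and 2 largest increases among members without overlap and with at least 10 cytosines. Outside this rule, the Tbx19 promoter, whose groups overlap, was given by sample as the highest promoter. So were some family levels and whole genes without overlap, and further DMCs of Tbx4 and Lhx3. Genes named for their level were the 5 highest promoters and the highest and lowest gene of each family, and single CpGs were the 3 largest hypoDMCs and hyperDMCs without overlap. Other members are named with their values only. The labels number the pools 1 to 4 in both groups. No label or method says that equal numbers mark a shared batch, and they were not treated as pairs. The chi-square per cytosine between pools was 1.99 to 2.08 within groups, like that between groups, so each pool was counted as its own sample. The region test and limma measure the spread between these pools only, and the likelihood-ratio test of single cytosines does not measure it. Coverage of at least 20, leaving out the 0.1% deepest cytosines, at least 10 cytosines per region, a wider promoter, coverage weighting, summed strands, a replicate block, overdispersion scaling, limma and leaving out each pool were tried as alternatives. The values of some single genes are not reported here, although the counts include them.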

Additional observations from a re-analysis of the deposited data

Results flagged for a closer look

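In groups of 4 pools, values were listed where 1 pool stood apart from the other 3 by Dixon's ratio at its critical value. Of 88 groups tested 6 were listed, and chance lists about 1 in 20. Control pool 4 had 2.70% in the Six-family promoters, where the other control pools had 1.17 to 1.28%, and 6.29% over promoter, exons and introns of the Six-family genes, where the others had 5.02 to 5.09%. Over promoter, exons and introns of all members, arsenic pool 1 had 12.3% and the other arsenic pools 11.9% each. Single CpGs had 1 pool above 0 while the other 3 of its group were at 0: arsenic pool 3 at 10% in the Pax7 intron, arsenic pool 1 at 6.25% in the Lhx8 intron and control pool 3 at 4.26% in the Tbx4 intron. Control pool 4 has the lowest read total of the control pools, 96428439, and arsenic pool 1 that of the arsenic pools, 97433083. The part of depth in these values was not tested.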

How the results depend on the processing

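No region of the members passed the threshold under any alternative run. Over all protein-coding genes the count of 0 became 1 with limma, 2 with a promoter from 2 kb before to 500 b after the start, and 0 to 3 with 1 pool left out (3 without arsenic replicate 4, 2 without control replicate 3). With a replicate block 424 regions of all genes passed, and 0 did once the dispersion was held at 1 or more, a setting chosen after seeing the data. The pools share only a number: deviations from the group means correlated by 0.00225 to 0.0193 at equal numbers, although 7 of 8 pools correlated best with their own number, a hint from the data only. For DMCs, overdispersion scaling gave 6 hypoDMCs (6885 without it) and 4 hyperDMCs (4867 without it) over all cytosines and 0 of each in the members, and limma gave 0 throughout. Summed strands gave 4084 and 2616 over all cytosines and 9 hypoDMCs in the members, coverage of at least 20 gave 11 hypoDMCs, and the replicate block gave 11 hypoDMCs and 10 hyperDMCs in the members. Without 1 pool the members held 14 to 26 hypoDMCs and 13 to 21 hyperDMCs. The promoter difference of 0.191 points became 0.674 as a mean over genes, and the intron difference of -0.28 became -0.682 when weighted by coverage and -0.0702 as a mean over genes. The exon difference ran from -0.187 to 0.0389 points without 1 pool, and was above 0 without control pool 3 or arsenic pool 2. Coverage weighting, chosen after seeing the data, left 1 of 6 genes without overlap and turned the Pax7 intron difference to 0.784 points. Of the 93 values of named regions and single CpGs under alternatives, 80 kept direction and call. In 12 the call was lost, all at the single CpGs of Pax5, Lhx8 and Tbx6 (Tbx6 also with the replicate block, q 0.0114). The named regions had no call to lose, with adjusted p of 0.86 to 0.909 in the quasi-binomial fit. The 93 leave out limma and overdispersion scaling of the single CpGs. Under these none of the 6 named CpGs passed, with q of 0.932 to 0.972 by limma and 0.678 to 0.77 by overdispersion scaling. The causes were not tested. At 10 to 30 reads a single CpG moves by several points with each read, and low promoters rest on few reads with a C.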
